A study of Homo sapiens with 4 samples.

Results

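The genes described here are 10 inhibitors of MAP kinase signaling, listed as feedback inhibitors of ERK, although DUSP10 prefers p38 and JNK over ERK. They are the dual-specificity phosphatases DUSP1, DUSP4, DUSP5, DUSP6, DUSP7 and DUSP10, the Sprouty genes SPRY2 and SPRY4, and the Sprouty-related genes SPRED1 and SPRED2. They were listed by name, and their transcripts were found among the 33886 genes with an entry for every library. Between 17884 and 18213 of these genes held at least 1 read in a library. HK-2 is an established cell line that derives from proximal tubule epithelium of human kidney. Here it carried a Tet-On transgene from which doxycycline switches on HA-PRCC-TFE3, an HA-tagged fusion protein that joins PRCC to the transcription factor TFE3. Doxy(+) cultures received 0.2 microg/ml doxycycline for 24 h and Doxy(-) cultures none, with 2 libraries of polyadenylated RNA in each group, numbered 1 and 2. All 4 cultures carried the transgene, whether they come from 1 clone or several is not given in the sources used here, and HK-2 cells without the transgene were not analysed here. Exposure to doxycycline and expression of the fusion therefore cannot be told apart.

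ERK is the last kinase of the cascade that runs from growth factor receptors through RAS, RAF and MEK. Active ERK switches on genes whose products shut the same cascade down, which keeps its signals brief. Dual-specificity phosphatases remove both activating phosphates from a MAP kinase, and Sprouty and SPRED proteins act further up, between the receptor and RAF. Levels of several of these transcripts are widely read as a sign of ERK pathway output, and receptors of the ERBB family, among them ERBB3, which the study followed, feed into this cascade.

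First, the libraries were checked against their labels. TFE3, whose transcripts take up reads of the transgene, was read as counts per 1000000 reads (CPM), with 66.9 and 69.1 CPM in the Doxy(-) libraries against 367 and 322 CPM with doxycycline. Reads on genes ranged from 12654233 to 15012743 per library. The epithelial keratin genes KRT8, KRT18 and KRT19 and the renal transcription factor gene PAX8 lay between 158 and 673 CPM, whereas the mature proximal tubule genes LRP2, AQP1 and ANPEP had between 0 and 3 reads in any library. Summed over 8 renal epithelial markers, of which CDH1 and PAX2 were below 1 CPM, the level was 2163 and 2158 CPM in Doxy(-) against 1844 and 1876 CPM in Doxy(+), and the part of this in the results was not tested. Its members moved unequally, as KRT8, KRT18, KRT19 and CDH2 fell by 15.4%, 15.2%, 24.6% and 26.9% (edgeR adjusted p 0.00369, 0.0139, 0.000745 and 0.00107), sizes like those of DUSP5 and DUSP1, whereas PAX8 was 4.51% higher (edgeR adjusted p 0.216). The 6 mature tubule markers summed to 71.0 CPM in each Doxy(-) library against 79.4 and 87.6 CPM, nearly all of it GGT1. Of 4 fibroblast markers, LUM was found at 160 to 185 CPM, DCN at 1.29 to 3.26 CPM and PDGFRB with 1 to 3 reads, and COL3A1 was at 0. The 4 endothelial markers summed to at most 1.04 CPM and the 3 leukocyte markers to at most 0.854 CPM.

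To see how strongly each inhibitor is expressed, levels were compared between genes as transcripts per 1000000 (TPM), which takes transcript length into account. In Doxy(-) the order of mean TPM was DUSP5 (63.4 ± 3.27, SD, n = 2), DUSP10 (57.3 ± 1.52), DUSP1 (40.8 ± 0.643), SPRED2 (28.9 ± 0.0907), SPRY2 (27.1 ± 2.17), DUSP6 (23.8 ± 0.773), SPRED1 (10.5 ± 2.85), SPRY4 (3.08 ± 0.524), DUSP7 (0.987 ± 0.618) and DUSP4 (0.0783 ± 0.0628). The range of each gene lay below that of the gene before it. Nuclear phosphatases thus held the first and the last place, since DUSP5 and DUSP4 both act in the nucleus. In Doxy(+) DUSP5 (56.9 ± 2.87) and DUSP10 (56.7 ± 3.19) overlapped, as did SPRED2 (33.1 ± 1.16) and DUSP1 (31.3 ± 1.57), and these pairs could not be ranked. SPRED2 stood above DUSP1 in mean TPM there, and DUSP6 (20.1 ± 0.123) above SPRY2 (18.9 ± 1.42). Both orders depend on transcripts with few reads of their gene. SPRED2-201, with 96.8% and 97.1% of the SPRED2 reads, held 26.8 and 26.3 TPM, below DUSP1-201 (32.5 and 30.2). DUSP6-203, of 604 bases and without a defined coding sequence, gave 7.71 and 8.05 TPM from 12.3% and 12.6% of the DUSP6 reads. The other places were those of Doxy(-).

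**Figure D1:**
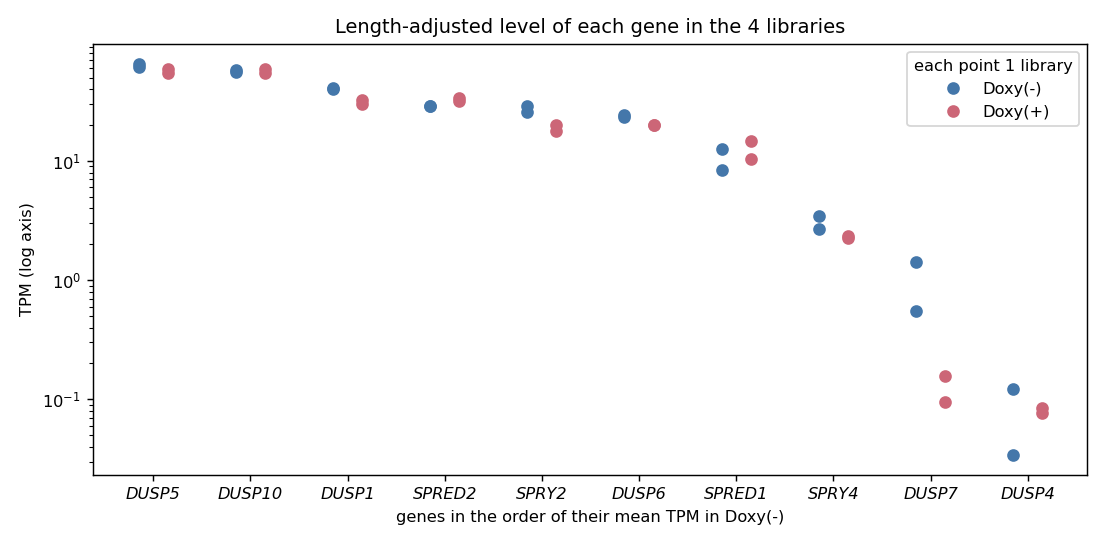
TPM of each of the 10 genes in the 4 libraries, on a log axis, with 1 point per library, Doxy(-) in blue and Doxy(+) in red, in the order of the Doxy(-) means. DUSP5 and DUSP10 lie near 60 TPM, and DUSP7 and DUSP4 lie at or below 1.42 TPM.

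Next, the same genes were compared between Doxy(-) and Doxy(+). Read counts were tested with edgeR over all genes, and calls were made where the adjusted p was under 0.05. DUSP1, DUSP5, DUSP7 and SPRY2 fell in Doxy(+), and none of the 10 genes rose. DUSP6, SPRY4, SPRED1, DUSP10 and SPRED2 did not pass the test, and DUSP4 had too few reads for it. In all, 4 of the 9 genes tested (44.4%) were called lower, against 9.59% of the 13542 genes tested, and 0 were called higher, against 9.81%. In either direction, 19.4% of all genes were called. The 2 groups did not overlap for 6 genes that were lower and 1 that was higher in Doxy(+), while among all genes tested these shares were 30.0% and 31.1%. An unadjusted p under 0.05 was found for 6 of the 9, against 33.4% of all genes. The median log2 fold change was -0.25 over these 9 genes and 0.00 over all genes tested. DESeq2 called DUSP1 and SPRY2 alone, where 6.08% of all genes were lower, and limma called 0 of them, where 2.34% were lower on log2(TPM + 1) and 2.28% on log2(TPM + 0.1). Without Doxy(+) 1 edgeR called only DUSP1 (4.28% of all genes were lower), and without Doxy(+) 2 only DUSP1 and SPRY2 (4.72%). On simulated counts with 196 of 13362 genes changed, 16.8% of the edgeR calls were false, above the level that the threshold sets. A larger share of genes was called in the data, so this value need not carry over to them. Calls near the threshold, such as DUSP5 and DUSP7, are still given less weight. DUSP7 entered the test only through its reads in Doxy(-), and the 10 genes were chosen with earlier results of these data known. The counts and the median over the 9 genes are therefore a description and no support for a direction. In bulk RNA, fewer cells that express a gene and less of its RNA per cell cannot be told apart.

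**Figure D2:**
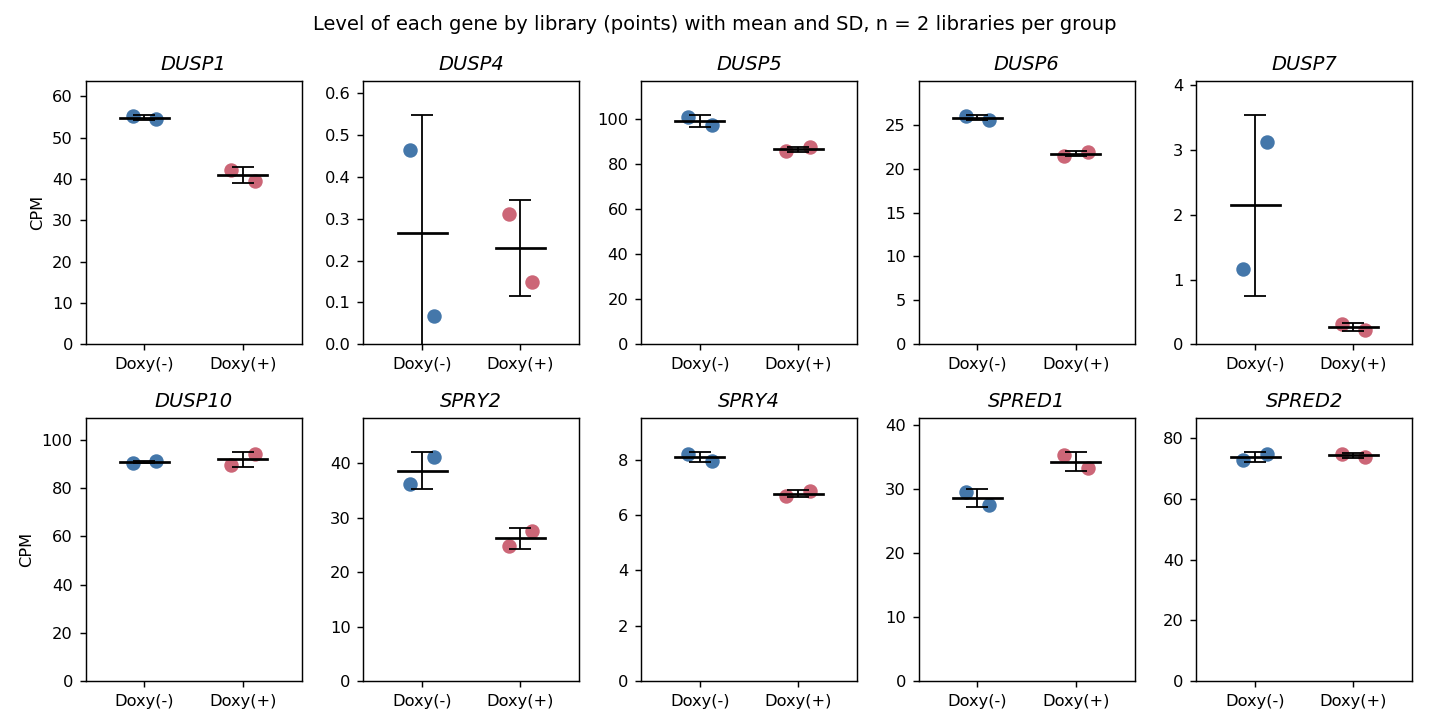
CPM of each gene by library, with 1 point per library, a bar for the mean and whiskers for the SD (n = 2 per group), each panel on its own axis from 0. Points of the groups stay apart for DUSP1, DUSP5, DUSP6, DUSP7, SPRY2, SPRY4 and SPRED1, and overlap for DUSP4, DUSP10 and SPRED2.

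Among the phosphatases, DUSP1 had the smallest p. DUSP1 (ENSG00000120129.6, hg38 chromosome 5, 172768096 to 172771195, minus strand) encodes an inducible nuclear enzyme that acts on p38 and JNK as well as on ERK. The Doxy(-) libraries held 55.2 and 54.4 CPM, and the Doxy(+) libraries 42.2 and 39.5 CPM. Both Doxy(+) libraries were below both Doxy(-) libraries, and the gap was wider than the spread within either group. Its mean fell from 54.8 ± 0.61 to 40.9 ± 1.96 CPM (SD, n = 2). On the log2 scale this came to -0.42 (adjusted p 0.00583 by edgeR, SE 0.0604). All of its reads lay on a single transcript, DUSP1-201, which held between 530 and 799 reads per library. With limma on log2(TPM + 1) or log2(TPM + 0.1) its adjusted p lay just above the threshold, at most 0.0559.

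SPRY2 (ENSG00000136158.12, chromosome 13, 80335976 to 80341126, minus strand) had the largest fitted decrease after DUSP7. Its product binds adaptor proteins below growth factor receptors. Its level without doxycycline was 36.3 and 41.1 CPM, against 24.9 and 27.6 CPM with it. The Doxy(-) libraries were the farther apart, and both stood above the Doxy(+) libraries. SPRY2 fell by 32.2%, with a log2 fold change of -0.56 (adjusted p 0.00977 by edgeR, SE 0.0927). Its main transcript, SPRY2-202, held 92.0% to 95.1% of the reads of the gene, with 445 and 566 reads in Doxy(-) against 294 and 346 in Doxy(+). Without Doxy(+) 1 the edgeR adjusted p was 0.0536, at a log2 fold change of -0.49.

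DUSP5 (ENSG00000138166.6, chromosome 10, 110497907 to 110511533, plus strand), a nuclear phosphatase that recognises ERK and not p38 or JNK, changed least of the called genes. Doxy(-) gave 101 and 97.3 CPM, and Doxy(+) gave 85.9 and 87.5 CPM. Both Doxy(+) values lay below both Doxy(-) values. DUSP5 fell by 12.7%, with a log2 fold change of -0.20 (adjusted p 0.0374 by edgeR, SE 0.0479). The call was the least stable of the 4 by number of alternatives, since it held in 6 of 14 alternative fits, and without Doxy(+) 1 its edgeR adjusted p was 0.21. The annotated DUSP5 pseudogenes DUSP5P1 and DUSP5P2 held 0 reads in all libraries.

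DUSP7 (ENSG00000164086.10, chromosome 3, 52048919 to 52056571, minus strand), a cytoplasmic ERK phosphatase, was the only 1 of the 10 genes past a log2 fold change of 1 in size as well, a limit that 1.97% of all genes tested passed, 1.50% upward and 0.473% downward. Its reads were few. Estimated counts of 14.7 and 46.1 in Doxy(-) stood against 4.05 and 2.55 in Doxy(+), which is 1.16 and 3.13 CPM against 0.311 and 0.223 CPM. Doxy(-) 2 was high even against Doxy(-) 1, and both Doxy(+) libraries were close to the 3 counts that a count of 0 allows. The fitted log2 fold change was -2.98 (adjusted p 0.0277 by edgeR, SE 0.665). Summed over libraries, 7 reads in Doxy(+) against 61 in Doxy(-) gave a ratio of 0.12 (exact 95% interval 0.0464 to 0.263, counting error only). Without Doxy(-) 2 the ratio was 0.229 (0.0789 to 0.596) and the log2 fold change -2.09. The log2 fold change was -3.51 without Doxy(-) 1, -3.23 without Doxy(+) 1 and -2.77 without Doxy(+) 2. Its size thus depended most on Doxy(-) 2, and the call did not hold without that library or without either Doxy(+) library.

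To show the sequence at the start sites of these genes, 250 bases before each start and none beyond it were read from RefSeq (GRCh38.p14). RefSeq starts of 8 of the 10 genes were matched, among them DUSP1, SPRY2 and DUSP7 of the called genes, which are printed for this reason 5′ to 3′ on the strand of the gene. Capitals mark any of 7 motifs searched on both strands, and for SPRY2 the outermost of 3 start sites is shown. DUSP1 lies at chr5:172771196-172771445, SPRY2 at chr13:80341127-80341376 and DUSP7 at chr3:52056572-52056821, each on the minus strand.
DUSP1: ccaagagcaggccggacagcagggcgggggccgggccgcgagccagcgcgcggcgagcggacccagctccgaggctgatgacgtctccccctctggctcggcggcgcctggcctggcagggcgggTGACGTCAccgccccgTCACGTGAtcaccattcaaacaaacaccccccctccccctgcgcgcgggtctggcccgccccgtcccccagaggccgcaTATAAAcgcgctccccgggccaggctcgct
SPRY2: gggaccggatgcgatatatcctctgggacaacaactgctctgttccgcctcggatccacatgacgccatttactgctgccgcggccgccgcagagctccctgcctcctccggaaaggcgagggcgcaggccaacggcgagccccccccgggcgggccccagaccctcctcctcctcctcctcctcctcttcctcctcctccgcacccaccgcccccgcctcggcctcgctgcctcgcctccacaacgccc
DUSP7: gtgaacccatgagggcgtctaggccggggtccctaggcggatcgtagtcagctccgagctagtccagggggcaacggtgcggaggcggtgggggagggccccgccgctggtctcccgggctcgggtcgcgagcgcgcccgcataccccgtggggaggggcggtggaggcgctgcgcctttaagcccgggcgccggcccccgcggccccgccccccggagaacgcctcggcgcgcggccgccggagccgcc

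The DUSP1 window alone of these held marked bases. They were an E-box CACGTG within the palindrome TCACGTGA, at 109 to 102 bases before the start, a cAMP response element TGACGTCA at 125 to 118 bases and a TATAAA at 30 to 25 bases. MiT/TFE factors, to which TFE3 belongs, are known to bind E-boxes of the form TCACGTG. Of 35116 RefSeq windows of this length, 6.34% held CACGTG, 3.31% TCACGTG (which contains CACGTG), 1.65% TGACGTCA and 10.7% TATAAA. The AP-1 motif TGANTCA (6.57% of windows), the ETS motif CCGGAAGT (3.42%) and the CArG box (1.16%) were not in any of the 12 windows of these genes, and the only other match was a TATAAA in the inner SPRED2 window. A match describes letters in a window and not binding. GC content of the printed windows was 74.4% for DUSP1, 70.4% for SPRY2 and 78.4% for DUSP7.

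DUSP6 and SPRY4, which are often used as readouts of ERK activity, were lower in both Doxy(+) libraries and did not pass the test. DUSP6 (ENSG00000139318.8, chromosome 12, 89347235 to 89352501, minus strand) encodes a cytoplasmic phosphatase selective for ERK. Its 2 Doxy(-) values were 26.0 and 25.6 CPM, and its Doxy(+) values were 21.5 and 21.9 CPM. These values were close within each group and did not overlap between them. The log2 fold change was -0.25 (adjusted p 0.0739 by edgeR, SE 0.0766), and the adjusted p lay between 0.0715 and 0.506 over the alternatives. Exons of DUSP6 overlap those of a long noncoding RNA gene (ENSG00000274021) that was not tested, and how the counting used strand is not given in the sources used here.

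SPRY4 (ENSG00000187678.10, chromosome 5, 142310427 to 142326455, minus strand), which restrains growth factor signals to RAS and RAF, was found at 8.22 and 7.96 CPM without doxycycline and at 6.68 and 6.85 CPM with it. The groups did not overlap here either. With 86.0 to 117 reads per library, its log2 fold change of -0.26 had the second largest standard error of the 9 genes (adjusted p 0.272 by edgeR, SE 0.144). A difference as small as this could not be detected with so few reads. SPRY4 and DUSP6 thus had nearly the same fold change at unequal precision.

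The reads of DUSP6 were divided among 4 transcripts with at least 10% of the gene in some library. DUSP6-202 held 175 and 167 reads in Doxy(-) and 108 and 144 in Doxy(+), and DUSP6-204 held 39.8 and 40.9 against 22.3 and 8.97. Both were lower in Doxy(+). DUSP6-201 and DUSP6-203 overlapped between the groups in reads, which are not adjusted for depth. DUSP6-201 held 88.7 and 129 reads in Doxy(-) and 112 and 104 in Doxy(+), and DUSP6-203 held 31.5 and 39.4 against 34.0 and 37.1. In TPM, DUSP6-203 did not overlap and was higher in Doxy(+) (6.94 and 7.55 in Doxy(-), 7.71 and 8.05 in Doxy(+)). It has no defined coding sequence. For DUSP7, DUSP7-201 held 14.7 and 16.4 reads in Doxy(-) and 4.05 and 2.55 in Doxy(+), without overlap. DUSP7-202 held 29.7 reads in Doxy(-) 2 and 0 in the other 3 libraries, and this transcript made the difference between the Doxy(-) libraries. SPRY4-201 held between 77.2 and 95.4 reads per library, and SPRY4-202 held 29.7 reads in Doxy(-) 2 against 8.76 to 10.6 in the other libraries. Single transcripts rest on how the quantifier divided shared reads, and they were not tested.

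**Figure D3:**
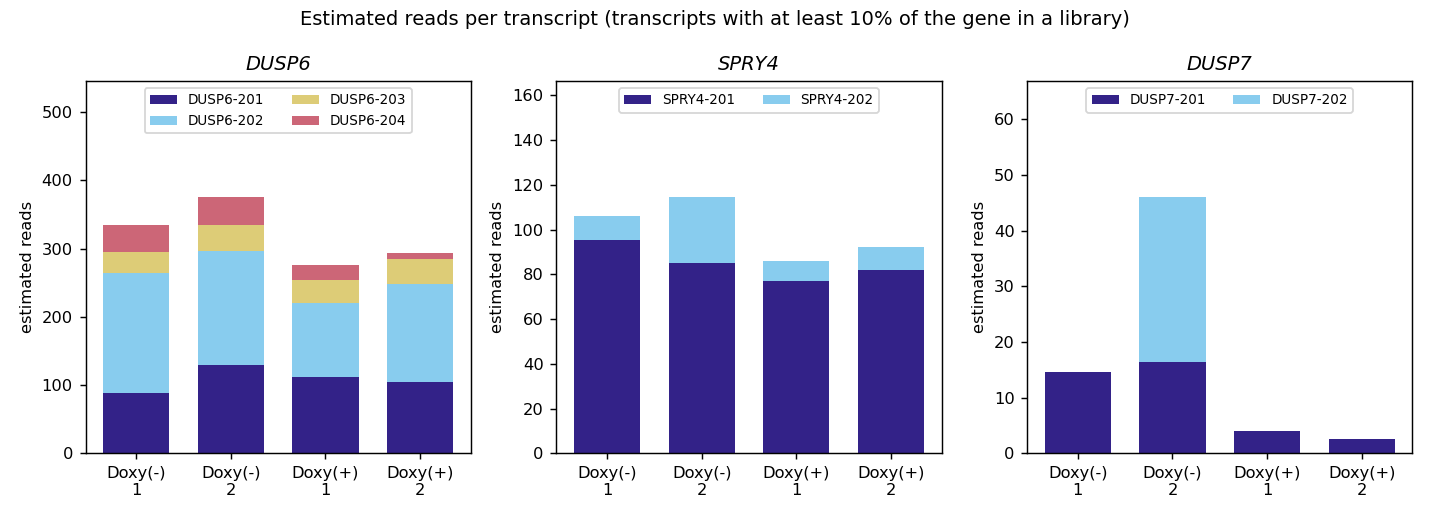
Estimated reads per transcript, stacked, in each library for DUSP6, SPRY4 and DUSP7, for transcripts with at least 10% of the reads of the gene in a library. DUSP7-202 is present in Doxy(-) 2 only, with 29.7 reads, and DUSP6-204 is smaller in both Doxy(+) libraries.

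Neither SPRED gene was called. SPRED1 (ENSG00000166068.13, chromosome 15, 38252836 to 38357249, plus strand) encodes a protein that brings neurofibromin to the membrane, where it switches RAS off. Values were 29.6 and 27.6 CPM in the Doxy(-) group and 35.4 and 33.3 CPM in the Doxy(+) group. Both Doxy(+) libraries were above both Doxy(-) libraries. The log2 fold change was 0.27 (SE 0.0754), and the edgeR adjusted p of 0.0585 missed the threshold and lay between 0.0531 and 0.595 over the alternatives. Its full-length transcript SPRED1-201 held 336 and 386 reads in Doxy(-) and 424 and 401 in Doxy(+).

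SPRED2 (ENSG00000198369.10, chromosome 2, 65310851 to 65432637, minus strand), a relative of SPRED1 with the same role, held 72.7 and 75.0 CPM in Doxy(-), against 75.0 and 73.7 CPM in Doxy(+). The groups overlapped, with a log2 fold change of 0.01 (adjusted p 0.916 by edgeR, SE 0.0502). DUSP10 (ENSG00000143507.18, chromosome 1, 221701424 to 221742089, minus strand), which prefers p38 and JNK over ERK, held 90.5 and 91.3 CPM in Doxy(-), against 89.8 and 94.1 CPM in Doxy(+). The Doxy(+) values enclosed the Doxy(-) values, at a log2 fold change of 0.02 (adjusted p 0.85 by edgeR, SE 0.0487). The sign of both values turned in some alternatives and neither was called in any.

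DUSP4 (ENSG00000120875.9, chromosome 8, 29333064 to 29350684, minus strand), a nuclear relative of DUSP1, was nearly silent. It held 6 and 1 reads in Doxy(-) and 4 and 2 reads in Doxy(+), too few for the low-count filter. These counts overlap, and with so few reads no difference could be detected.

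**Figure D4:**
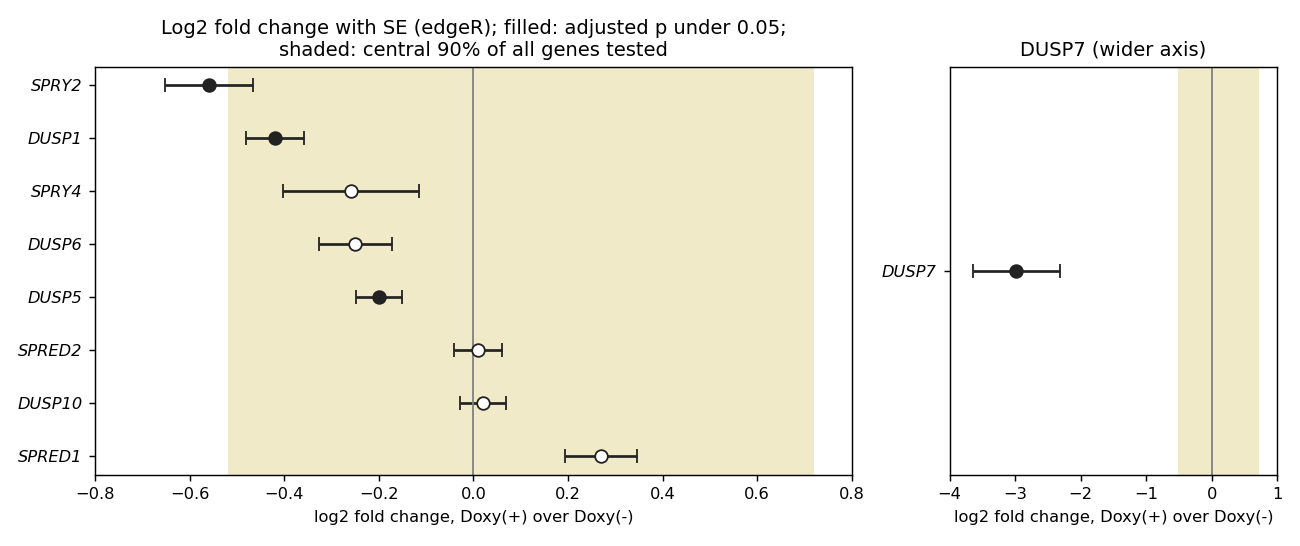
Log2 fold change of Doxy(+) over Doxy(-) with its SE for the 9 genes tested, DUSP7 on a wider axis, filled where the edgeR adjusted p was under 0.05. The shaded band runs from -0.52 to 0.72, the 5th to the 95th percentile of all genes tested, and SPRY2 (-0.56) and DUSP7 (-2.98) lie below it.

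Summed as TPM, the 6 phosphatase genes reached 188 and 185 in Doxy(-), against 162 and 168 in Doxy(+). SPRY2 and SPRY4 together came to 28.3 and 32.1 against 20.1 and 22.2, and both sums were lower in each Doxy(+) library. SPRED1 and SPRED2 together came to 41.4 and 37.3 against 44.2 and 47.0. TPM of SPRED1 overlapped between the groups (12.5 and 8.47 in Doxy(-), 10.3 and 14.8 in Doxy(+)), and SPRED1-201, with most of its reads, made up only 4.86 to 6.33 TPM of it. SPRED2 differed by scale, since its TPM was 28.9 and 28.8 in Doxy(-) against 33.9 and 32.2 in Doxy(+), without the overlap seen in CPM. SPRED2-201, with 96.8% to 99% of its reads, did overlap in TPM (25.6 and 26.4 against 26.8 and 26.3). The gap in TPM of SPRED2 thus lay mostly in transcripts with few reads, and limma on TPM did not call the gene (adjusted p 0.222).

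To place these genes in their pathway, 4 further lists were compared in the same fit. Of 7 other MAP kinase phosphatase, Sprouty and SPRED genes, 0 were called by edgeR, against 19.4% of all genes in either direction. DESeq2 also called 0. An unadjusted p under 0.05 was found for 2 of the 7, beside 33.4% of all genes. The median log2 fold change was 0.28. DUSP2, DUSP9, SPRY1, SPRY3 and SPRED3 lay between 0.853 and 3.13 CPM, so this median rests mostly on genes with few reads. SPRED3, a further relative of SPRED1, held 0.853 and 0.953 CPM in Doxy(-), against 2.25 and 1.56 CPM in Doxy(+) (log2 fold change 1.07, edgeR adjusted p 0.0975). DUSP8, a phosphatase of p38 and JNK, was measured at 22.8 and 23.1 against 18.0 and 19.4 CPM (log2 fold change -0.29, edgeR adjusted p 0.0688).

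Of 13 other transcripts known to depend on ERK, 11 were tested, 7 fell and 1 rose, at a median of -0.39. These were 63.6% and 9.09%, beside 9.59% and 9.81% of all genes. The list was chosen with earlier results of these data known, so these shares are a description and no support for a direction. DESeq2 called 5 of these transcripts lower and 0 higher (6.08% and 6.12% of all genes). In each setting, limma called 3 lower and 1 higher. Of all genes, limma called 2.34% lower on log2(TPM + 1) and 2.28% on log2(TPM + 0.1). It called 600 and 596 of the 13281 genes higher in these settings. The smallest p-values were those of CCND1 and MYC. CCND1, which encodes cyclin D1, fell from 164 and 163 CPM in Doxy(-) to 88.6 and 93.6 CPM in Doxy(+) (log2 fold change -0.84, edgeR adjusted p 0.000224). MYC, a growth regulator, fell from 213 and 237 to 130 and 131 CPM (log2 fold change -0.78, edgeR adjusted p 0.000587). The other genes called lower were KCNN4 (-0.95), PHLDA1 (-0.44), FOSL1 (-0.41), EPHA2 (-0.39) and ETV4 (-0.36), and ETV5 rose by 0.23 on the log2 scale, all of which were named after their values were seen. Both ETV4 and ETV5 encode ETS-family factors. IER3 and FOS were not tested, with at most 13.4 reads in any library.

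Of 21 genes of the cascade itself, from RAS and its adaptors to MEK, ERK and their partners, 1 fell and 0 rose by edgeR, at a median of 0.04, while 6 had an unadjusted p under 0.05, and DESeq2 also called 1 lower and 0 higher. The edgeR share of 4.76% lower stood beside 9.59% of all genes, and 33.4% of all genes had such an unadjusted p. RASA1, a GTPase-activating protein that switches RAS off, fell from 62.6 and 64.0 to 50.0 and 45.1 CPM (log2 fold change -0.41, edgeR adjusted p 0.00939). MAPK3, which encodes an ERK kinase, held 22.2 and 24.5 CPM in Doxy(-), against 29.1 and 28.2 CPM in Doxy(+) (log2 fold change 0.30, edgeR adjusted p 0.058). Of 13 p38 and JNK cascade genes, 2 fell and 0 rose by edgeR, at a median of -0.06, with 5 at an unadjusted p under 0.05, and DESeq2 called 0 in either direction. At 15.4% lower against 9.59%, and 5 of 13 against 33.4%, these counts lay near those of all genes. The genes that fell were MAPK11 (log2 fold change -0.32), which encodes a p38 kinase, and MAPKAPK2 (-0.26), which encodes a kinase activated by p38, each with an edgeR adjusted p of 0.0134.

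**Figure D5:**
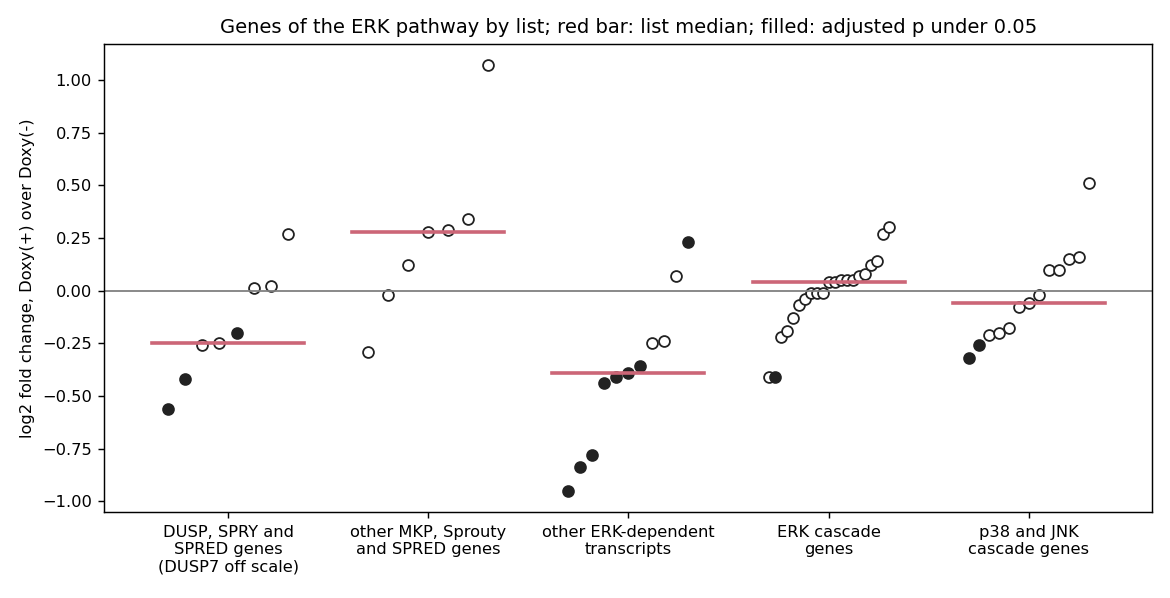
Log2 fold change of each tested gene in the 5 lists, with a red bar for the list median and filled points for an edgeR adjusted p under 0.05, and with DUSP7 (-2.98) off the scale. The ERK-dependent transcripts hold 7 filled points below 0, and the 21 cascade genes center near 0 with a median of 0.04. The lists were chosen with earlier results of these data known.

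Genes with the nearest pattern over the 4 libraries were sought for DUSP6 and SPRY4, by Euclidean distance of log2 CPM centred on the mean of each gene. FANCG (0.0087), ICE1 (0.0119) and MAPKAPK2 (0.013) were nearest to DUSP6, and CAMSAP1 (0.0137), TBL3 (0.0167) and HMG20B (0.0188) to SPRY4. Such likeness was common, since 663 genes whose mean reached 10 CPM lay within 0.1 of DUSP6 and 584 within 0.1 of SPRY4.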

How the data were processed

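RNA of HK-2 cells carrying HA-PRCC-TFE3 was sequenced from 2 Doxy(-) and 2 Doxy(+) cultures, grouped by their labels. The submitters' processing notes name Trim Galore 0.6.6, cutadapt 2.5, STAR 2.7.9a and hg38. The deposited tables hold expected counts and TPM of the authors for 180253 Ensembl transcripts. The methods name RSEM for TPM, whereas the columns are those that kallisto writes, and the annotation is named as that of UCSC for hg38. Its release and the use of strand are not given in the sources used here. Of the identifiers, 83.6% matched GENCODE release 44, and counts and TPM were summed per gene symbol. Unmatched identifiers held 9.66% to 9.89% of each library and were left out.

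Sums were rounded to whole reads, and the edgeR package (4.0.16, R 4.3.3) was used for the test (glmQLFit, glmQLFTest, TMM, filterByExpr, group as the only term), with Benjamini-Hochberg adjustment over 13542 genes. The SE is the one implied by the F statistic. CPM is scaled by TMM. The scripts were tested on simulated data with gene-specific spread and few changed genes, where the folds were recovered and the share of false calls by edgeR was above the nominal level. Replicates differed by more than sampling noise (chi-square per degree of freedom 4.17 and 2.95). The labels do not say what separates the 2 libraries of a group, so p-values cover the spread between these libraries, which may be technical. RefSeq promoters of GRCh38.p14 were used for sequences only. The alternatives were RLE factors, other low-count filters, DESeq2 1.42.0, limma 3.58.1 on log2(TPM + 1) or log2(TPM + 0.1) for genes with a mean of at least 1 TPM, length-scaled counts, unmatched copies added, unmatched identifiers beside the genes, a replicate block, each library left out and an adjusted p under 0.01. A count of 0 allows up to 3 counts, and intervals and floors cover counting error only. Named were the 10 genes whatever their result, TFE3, the 2 genes of each list with the smallest p and the 3 genes nearest to DUSP6 and to SPRY4. Outside this rule, the other called and the untested ERK-dependent transcripts were named after their values were seen. So were the phosphatase and Sprouty genes with few reads. Marker genes were named from their fixed lists. The genes and lists were chosen with earlier results of these data known.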

Additional observations from a re-analysis of the deposited data

Results flagged for a closer look

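Transcript identifiers that matched no gene lie outside the gene sums. When they were tested beside the genes with edgeR, 182 of 6332 (2.87%) had an adjusted p under 0.05, 94 higher and 88 lower in Doxy(+). Of the copies of matched transcripts among the unmatched identifiers, 0 belonged to the 10 genes described here.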

How the results depend on the processing

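The sign of DUSP1, DUSP5, DUSP6, DUSP7, SPRY2, SPRY4 and SPRED1 was the same in every alternative that gave a value. Calls held in 12 of 14 alternatives for DUSP1, 10 of 14 for SPRY2, 7 of 11 for DUSP7 and 6 of 14 for DUSP5, and the adjusted p ran from 0.00155 to 0.0559, from 0.00178 to 0.0618, from 0.00651 to 0.135 and from 0.0309 to 0.294. DUSP7 was not tested by limma, and DESeq2 gave it no adjusted p. The sign of DUSP10 turned with length-scaled counts (-0.05), with both limma settings (-0.02) and without Doxy(+) 2 (-0.02), within a range of -0.02 to 0.05 over the fits without a library. That of SPRED2 turned without Doxy(+) 1 (-0.0030) and without Doxy(-) 1 (-0.02), within a range of -0.02 to 0.03. Causes were not tested. With 2 libraries per group, depth limits DUSP4, DUSP7 and SPRY4 most.

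Of the 10 genes, 2 were called lower by DESeq2, 0 by either limma setting, 1 with unmatched identifiers beside the genes and 2 at an adjusted p under 0.01, and 0 of them were past the fold limit under each of these settings, in 3 of which (DESeq2 and both limma settings) DUSP7 had no adjusted p. Over the fits that left out a library, the log2 fold change ran from -0.47 to -0.38 for DUSP1 and from -0.65 to -0.47 for SPRY2. It ran from -0.23 to -0.17 for DUSP5 and from -3.51 to -2.09 for DUSP7. Calls over all genes under the other settings are given below. The share of all genes past the fold limit was taken in the main fit alone.

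Of the ERK-dependent transcripts, 1 was called higher in each limma setting, and 0 by DESeq2, with unmatched identifiers or at 0.01. Called lower were 3 with limma on log2(TPM + 1) and 3 on log2(TPM + 0.1), 4 with unmatched identifiers and 4 at 0.01. Without a library, 0 were higher and 4 to 6 lower. Of the ERK cascade genes, 1 was higher without a low-count filter and 0 were lower with limma, and without a library 0 to 2 were higher and 0 to 1 lower. Of the p38 and JNK genes, 0 were lower by DESeq2, with length-scaled counts, with limma and at 0.01, and 0 to 3 without a library.

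Genes with an adjusted p numbered 12754 by DESeq2, 13281 in each limma setting and 13542 at the threshold of 0.01. All genes called higher and lower numbered 781 and 775 by DESeq2, 676 and 581 with length-scaled counts, 600 and 311 with limma on log2(TPM + 1), 596 and 303 on log2(TPM + 0.1), 644 and 617 with unmatched identifiers, and 626 and 559 at 0.01. Without a library they ran from 672 to 1250 and from 596 to 1327.

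Deviations of libraries with the same replicate number were nearly uncorrelated over genes (-0.00914). With 2 libraries per group this cannot settle whether the cultures were paired. With the replicate number as a block, 4 of the 10 genes were called lower and 0 higher, as without it. Of all genes, 1261 were called lower and 1282 higher in that fit.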
